A study of Mus musculus with 4 samples.

Results

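Cholesterol and fatty acid synthesis was followed through 39 named genes in leukaemic spleen cells of mice given the FTO inhibitor CS1 or PBS. The 39 genes were taken from the deposited table by exact symbol, and all 39 were found among its 24497 features. The cells came from mice with acute myeloid leukaemia driven by the MLL-AF9 fusion, which every library shares. Leukaemic CD45.2 bone marrow cells of primary mice were passed to irradiated secondary recipients (320 rads), and dosing began a week later. The CS1 group received CS1 at 5 mg/kg and the control group received PBS, intraperitoneally on alternate days for 20 days. Spleen mononuclear cells were then enriched for CD45.2 on beads, and poly(A) RNA was sequenced. There were 2 libraries per group, PBS replicates 1 and 2 and CS1 replicates 1 and 2. CS1 replicate 2 carries CS2 in its treatment field but CS1 in its title and description, and it was kept in the CS1 group. Neither the age of the mice nor the construct that carries the fusion is stated in the labels, and nothing says that replicates came from separate mice. The p-values therefore measure the spread between these samples only, and that spread may be technical.

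Cells make cholesterol from acetyl-CoA through the mevalonate pathway, whose products also feed prenyl groups and ubiquinone, and then through squalene and lanosterol. When sterols in the endoplasmic reticulum run low, SCAP carries the transcription factors SREBP1 and SREBP2 (genes Srebf1 and Srebf2) to the Golgi for cleavage, and they switch on synthesis genes. INSIG proteins hold SCAP back when sterols are plentiful. Excess sterol is sensed as oxysterols by the LXR receptors (Nr1h2 and Nr1h3), which switch on the exporters ABCA1 and ABCG1. Fatty acids are built by ACC1 and fatty acid synthase and then elongated, desaturated and coupled to CoA. In myeloid cells these steps set membrane lipids, and export through ABCA1 and ABCG1 is best known from macrophages.

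Values were in TPM, a transcript's share of its library scaled by transcript length, so that levels can be set side by side between genes. Column sums ranged from 977973 to 986345, and 11459 to 11813 features reached 1 TPM in a library. Each gene was tested in limma on log2(TPM + 1) in a fit over the 11866 features that reached 1 TPM in 2 or more libraries, and it was called at a Benjamini-Hochberg adjusted p under 0.05. Across all features 67.0% were called, 35.3% higher and 31.6% lower in CS1, and the groups did not overlap for 84.4%. Ptprc, which encodes CD45, was present at 583 and 597 TPM in PBS and at 323 and 315 TPM in CS1. It is 1 of 8 markers of the labelled leukaemic myeloid cells, of which 4 were lower (Ptprc, Itgam, Csf1r and Spi1) and 4 higher (Mpo, Elane, Kit and Cd33). Their summed level was 3892 and 3903 TPM in PBS and 5598 and 5638 TPM in CS1. Elane and Mpo carried that rise. Elane was at 423.50 and 426.81 TPM in PBS and at 2490 and 2533 TPM in CS1. Mpo was at 160 and 163 TPM in PBS and at 805 and 821 TPM in CS1. Because this is bulk RNA, fewer cells of a type and less RNA per cell cannot be told apart. Monocyte and macrophage markers moved with the groups. Of 12 markers 6 were tested. Lyz2, Cd68, Adgre1 and Csf1r were lower. Marco, which entered the test through its PBS libraries alone, was at 2.17 and 1.40 TPM in PBS and 0.81 and 0.92 TPM in CS1. Vcam1, which entered the test through its CS1 libraries alone, was at 0.47 and 0.85 TPM in PBS and 1.37 and 1.51 TPM in CS1. The summed level of the 12 fell from 14450 and 14587 TPM in PBS to 6932 and 6953 TPM in CS1, most of it Lyz2. The other 6, Mrc1, C1qa, C1qb, C1qc, Cd5l and Siglec1, stayed under 1 TPM in every library, whereas the macrophage marker Adgre1 was at 164 TPM in both PBS libraries and at 96.5 and 97.9 TPM in CS1. Late neutrophil markers summed to 1754 and 1787 TPM in PBS and to 5438 and 5461 TPM in CS1, a rise carried by Ngp and Camp. Of the 8 markers 4 were higher (Ngp, Camp, Mmp9 and Retnlg) and 3 lower (Mmp8, Ltf and Cxcr2), and Ly6g did not pass. Summed B cell markers stood at 67.9 to 70.4 TPM in PBS and 43.6 to 45.5 TPM in CS1. The part of these cell types in the results below was not tested. The fat cell markers Adipoq, Plin1 and Cidec were listed at 0.01, the lowest value of the table, in all 4 libraries.

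The lipid synthesis genes, like all features, split rather than moving one way. Export genes, 2 desaturases and several sterol enzymes rose in CS1, while both abundant elongases, Acsl5 and other sterol enzymes fell. Of the 39 genes 38 were tested, with 11 higher, 10 lower and 17 that did not pass. That is 55.3% called, below the 67.0% of all features, which split as well, with 35.3% higher and 31.6% lower. The groups did not overlap for 34 of the 38 (89.5%, against 84.4% of all features). Abca1 and Scd2, 2 of the 38, were called with an absolute log2 fold change of at least 1, against 7.47% of all features. The median log2 fold change of the 38 was -0.02, beside 0.04 for all tested features. After quantile normalization the count was 11 higher and 16 lower. Nr1h3 was under 1 TPM everywhere and was not tested, and Abca1 reached the filter through its CS1 libraries, since only 1 PBS library was at 1 TPM or more. The summed level of all 39 hardly moved, at 1248 and 1245 TPM in PBS and 1265 and 1253 TPM in CS1.

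**Figure D1:**
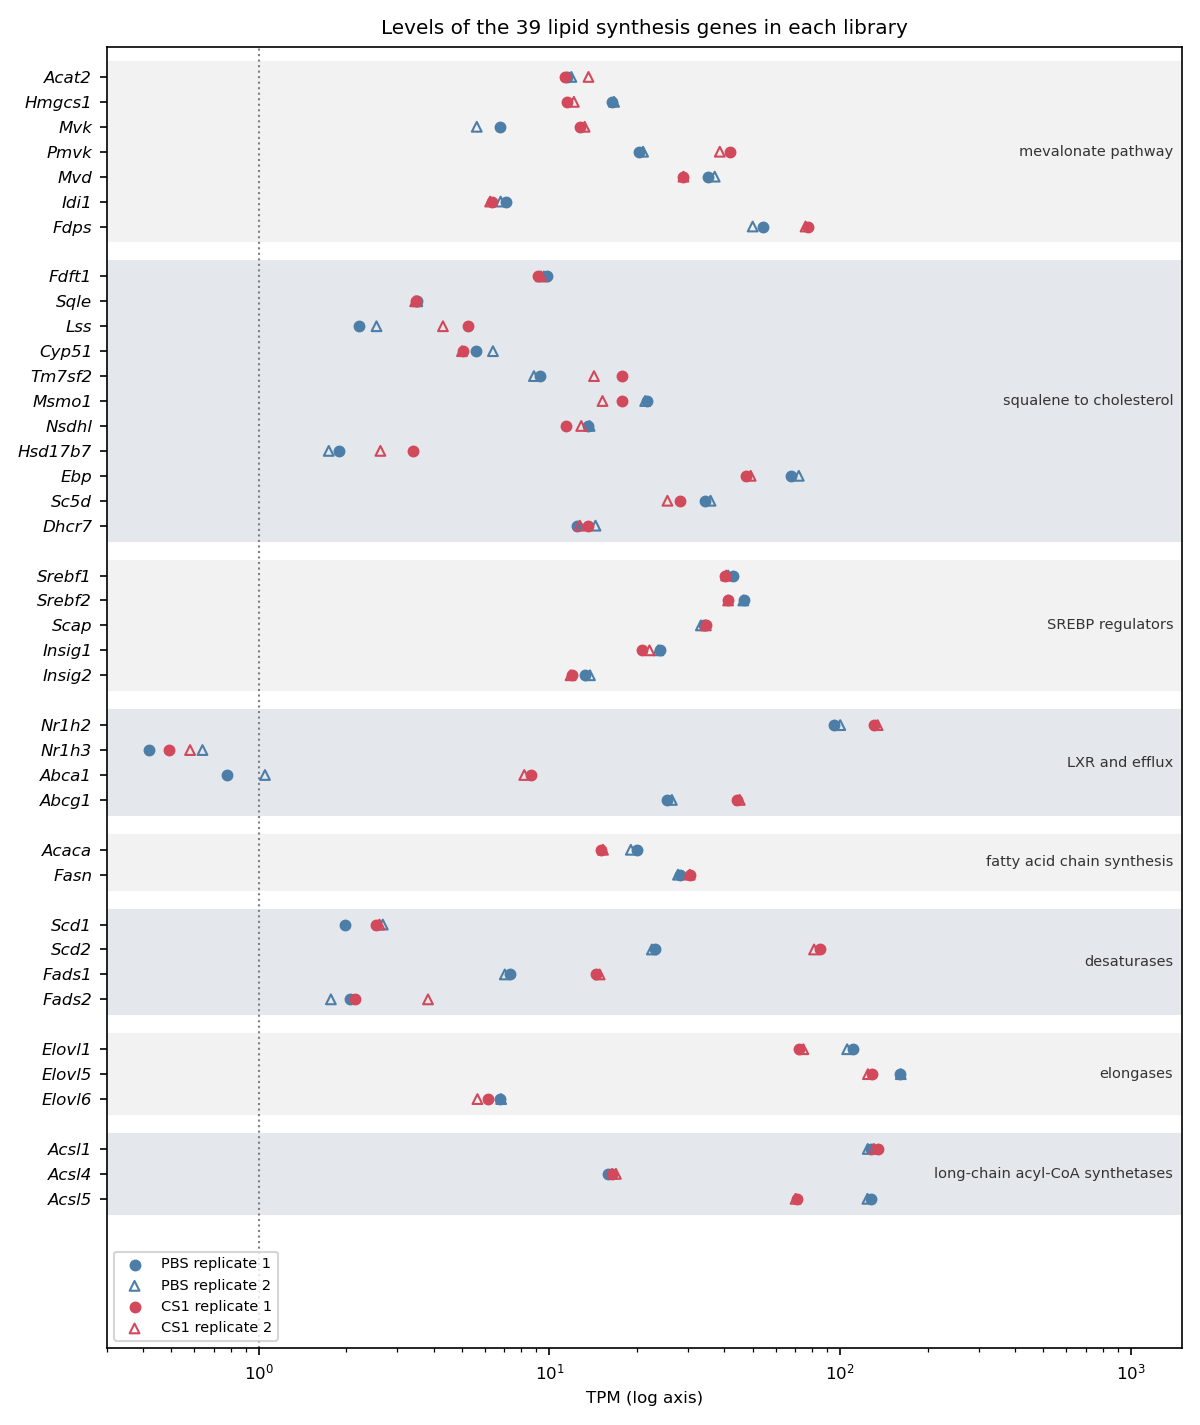
Level of each of the 39 genes in TPM on a log axis, grouped by role; blue marks are PBS, red marks are CS1, filled circles are replicate 1 and open triangles replicate 2, and the dotted line is 1 TPM. Elovl5 at 125 to 162 TPM and Acsl1 at 124 to 135 TPM sit at the upper end, Nr1h3 at 0.42 to 0.64 TPM at the lower end, and Abca1 and Scd2 show wide gaps between colours.

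The 5 regulators of the pathway had log2 fold changes between -0.18 and 0.04. Srebf2, which encodes the main driver of sterol synthesis genes, was listed at 46.74 and 46.43 TPM in PBS and at 41.27 and 41.17 TPM in CS1. Both CS1 libraries lay below both PBS libraries, and the fall of 0.17 on the log2 scale passed (SE 0.04, adjusted p = 0.00702). It was the 1 called gene among the 5 regulators (20.0%, against 67.0% of all features). Srebf1, which leans towards fatty acid genes, stood at 42.70 and 41.19 TPM in PBS and at 40.23 and 40.53 TPM in CS1, without passing (log2 fold change -0.05, adjusted p = 0.278). In PBS the 2 factors were at close levels, with a ratio of Srebf2 to Srebf1 of 1.09 and 1.13, and in CS1 it was 1.03 and 1.02. Scap, the escort protein of both, was at 34.09 and 33.18 TPM in PBS and 34.55 and 34.51 TPM in CS1 (log2 fold change 0.04, adjusted p = 0.463), a sign that turned with trimmed-mean rescaling (-0.0011). Exons of Scap share 985 bases with the antisense gene model 5830462I19Rik, so its value is uncertain to that extent.

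Both INSIG genes sat just outside the threshold. Insig1, itself a classical SREBP target, was at 24.08 and 23.68 TPM in PBS and at 20.86 and 22.08 TPM in CS1 (log2 fold change -0.15 ± 0.05, SE, adjusted p = 0.0547). Insig2, the form that does not depend on SREBP, was at 13.30 and 13.78 TPM in PBS and at 11.91 and 11.82 TPM in CS1 (log2 fold change -0.18 ± 0.07, adjusted p = 0.0564). In neither gene did the groups overlap, which was also so for 84.4% of all features. Across alternatives the adjusted p ran from 0.029 to 0.209 for Insig1 and from 0.0101 to 0.19 for Insig2, and both passed after quantile normalization and with trimmed-mean rescaling. Insig1 was 1.72 to 1.87 times the level of Insig2 in all 4 libraries.

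The 7 genes of the mevalonate pathway went in both directions. Of these 3 were higher, 2 lower and 2 did not pass (71.4% called, against 67.0% of all features). The sequence before the start site of 4 of them is shown because consecutive enzymes moved in opposite ways, and that of Abca1 because it had the largest rise of the 39 genes. These are the 200 bases upstream of the RefSeq start (GRCm38.p6, the assembly of mm10), 5′ to 3′ on the strand of the gene. Pmvk has 2 RefSeq windows, and only the first by coordinate is shown. Capitals mark every match on either strand to a sterol regulatory element (TCACCCCAC), an E-box (CACGTG) or a CCAAT box (CCAAT, or ATTGG when read on the other strand).
Hmgcs1, chr13:119690151-119690350, plus strand, fell in CS1: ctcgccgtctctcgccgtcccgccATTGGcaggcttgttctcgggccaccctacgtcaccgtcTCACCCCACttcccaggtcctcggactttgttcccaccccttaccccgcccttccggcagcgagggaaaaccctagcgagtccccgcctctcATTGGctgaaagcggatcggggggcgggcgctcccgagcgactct
Mvk, chr5:114444069-114444268, plus strand, rose in CS1: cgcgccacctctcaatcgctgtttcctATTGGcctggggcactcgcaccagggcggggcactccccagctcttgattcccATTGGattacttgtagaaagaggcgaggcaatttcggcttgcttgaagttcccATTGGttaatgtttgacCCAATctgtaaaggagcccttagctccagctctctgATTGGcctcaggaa
Pmvk, chr3:89454341-89454540, plus strand, rose in CS1: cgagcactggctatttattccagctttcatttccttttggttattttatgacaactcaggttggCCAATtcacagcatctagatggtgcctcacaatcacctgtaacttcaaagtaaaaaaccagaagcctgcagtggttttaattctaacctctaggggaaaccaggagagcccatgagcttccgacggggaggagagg
Mvd, chr8:122443423-122443622, minus strand, fell in CS1: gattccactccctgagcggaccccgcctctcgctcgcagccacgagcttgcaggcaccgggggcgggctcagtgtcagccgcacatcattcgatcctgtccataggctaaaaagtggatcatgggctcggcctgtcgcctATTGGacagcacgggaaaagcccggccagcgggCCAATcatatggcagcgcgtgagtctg
Abca1, chr4:53159896-53160095, minus strand, rose in CS1: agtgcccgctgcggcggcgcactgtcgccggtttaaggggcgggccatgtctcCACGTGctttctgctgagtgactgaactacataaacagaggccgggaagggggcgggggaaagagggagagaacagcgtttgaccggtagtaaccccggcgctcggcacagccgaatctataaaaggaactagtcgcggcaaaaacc

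Within these stretches Hmgcs1 held the sterol regulatory element and 2 CCAAT boxes, Mvk held 5 CCAAT boxes, Mvd held 2, Pmvk held 1, and Abca1 held an E-box. The RefSeq table gave 43 windows, running from 250 bases before to 50 after a start, for 32 of the 39 genes, and had no entry for Abcg1, Scd1, Scd2, Fads1, Fdft1, Sqle and Fdps. The strict sterol element was found in 2 of these windows, those of Hmgcs1 and Acsl1, against 0.551% of all 32851 windows. The looser form TCACNCCAC, which includes the strict one, added no gene and stood in 1.24% of all windows. CCAAT boxes were found in 24 of the 43 windows, covering 23 genes, against 37.4% of all windows, and E-boxes in 8 windows of 7 genes, against 7.15%. GC boxes (GGGCGG) were found in 29 windows, against 35.7%. The direct repeat that LXR binds was found in 0.0152% of all windows and in none of the 43. A match describes letters in these windows and is not a measured binding site, and the absence of one says nothing about the factor.

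Hmgcs1 encodes the cytosolic HMG-CoA synthase at the head of the pathway. It was listed at 16.46 and 16.68 TPM in PBS and at 11.52 and 12.13 TPM in CS1, a fall of 0.45 on the log2 scale (SE 0.07, adjusted p = 0.00152). The groups lay well apart, and the CS1 level was 0.714 of the PBS level. Hmgcs1 exons share 557 bases with the antisense gene model Gm48342, so its value is uncertain to that extent. Mvk, the mevalonate kinase that comes later, was at 6.76 and 5.62 TPM in PBS and at 12.73 and 13.21 TPM in CS1. This was a 2.10-fold rise (log2 fold change 0.96 ± 0.10, adjusted p = 0.000445). Mmab, an adenosyltransferase gene of vitamin B12 metabolism, faces away from Mvk with 208 bases between the genes and was named for this position after its values were seen. It was at 4.12 and 4.26 TPM in PBS and 6.08 and 6.89 TPM in CS1 (log2 fold change 0.53, adjusted p = 0.00534).

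Pmvk, the phosphomevalonate kinase that acts directly after mevalonate kinase, also rose close to 1 log2 unit. It stood at 20.37 and 20.99 TPM in PBS and at 41.88 and 38.54 TPM in CS1 (log2 fold change 0.93 ± 0.06, adjusted p = 5.56e-05). Mvd, the decarboxylase of the step that follows, went the other way, from 35.17 and 37.02 TPM in PBS to 28.80 and 28.90 TPM in CS1. Its fall was 0.31 on the log2 scale (SE 0.05, adjusted p = 0.00177). Thus the 2 kinases rose and the decarboxylase on their product fell. The groups of each did not overlap, which was also so for 84.4% of all features. Fdps, which makes farnesyl diphosphate, the branch point to prenylation and sterols, rose from 54.08 and 50.01 TPM in PBS to 77.62 and 76.03 TPM in CS1 (log2 fold change 0.55 ± 0.05, adjusted p = 0.000172). The Fdps exons share 1124 bases with the same-strand gene model Gm43738, so its value is uncertain to that extent.

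Acat2, the cytosolic thiolase of the first step, and Idi1, the isomerase before Fdps, did not pass, with log2 fold changes of 0.08 and -0.12. Of the 50-base words along the longest transcript of Acat2, 45.7% also occur in transcripts of its neighbour copy Acat3, so reads can be split between them. For Idi1 21.5% of the words also occur in the gene model Gm13502, and 323 exon bases are shared with the antisense gene model Gm48574. The value of Idi1 is therefore uncertain too. Acat2 overlapped between groups and turned to -0.04 without CS1 replicate 2. Summed over the 7 genes, mevalonate pathway transcripts stood at 151 and 149 TPM in PBS and at 190 and 189 TPM in CS1. Fdps and Pmvk, the members with the largest gains in TPM, carried most of that sum's rise.

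From squalene to cholesterol 3 of 11 genes rose, 3 fell and 5 did not pass (54.5% called, against 67.0% of all features). The summed level went from 182 and 190 TPM in PBS to 162 and 154 TPM in CS1. Sqle, the squalene epoxidase that limits flux after the mevalonate pathway, was listed at 3.51 TPM in both PBS libraries and at 3.47 and 3.45 TPM in CS1. It did not pass (log2 fold change -0.02 ± 0.10, adjusted p = 0.90), and its level was among the lowest of the sterol enzymes. Lss, the cyclase that makes lanosterol, doubled from 2.22 and 2.54 TPM in PBS to 5.23 and 4.30 TPM in CS1 (ratio 2.0, log2 fold change 0.77 ± 0.13, adjusted p = 0.00315). Its CS1 libraries were less alike than those of most genes here, but neither came near the PBS range. Exons of Lss share 381 bases with the antisense gene model 4930483K19Rik, which was listed at 0.01 to 0.37 TPM. Tm7sf2, a sterol C14 reductase, rose from 9.30 and 8.84 TPM to 17.83 and 14.23 TPM (log2 fold change 0.75 ± 0.11, adjusted p = 0.00193). It shares 532 exon bases with Vps51 on the same strand, and Vps51 itself did not pass (57.65 and 55.48 TPM in PBS, 58.24 and 57.03 TPM in CS1).

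Hsd17b7, the 3-keto reductase of C4 demethylation, was the least firm of the called genes. It was at 1.89 and 1.74 TPM in PBS and at 3.39 and 2.62 TPM in CS1 (log2 fold change 0.50 ± 0.14, adjusted p = 0.0229). The call was kept in only 5 of the 10 alternatives that tested this gene, with adjusted p from 0.0226 to 0.171 in limma across alternatives. Fits without PBS replicate 1, without PBS replicate 2 and without CS1 replicate 1 were among those that lost it. The other rising sterol genes, Lss and Tm7sf2, kept their calls in every alternative that tested them.

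The 3 genes that fell in this stretch were more abundant. Ebp, the sterol isomerase, went from 67.61 and 72.06 TPM in PBS to 47.32 and 49.22 TPM in CS1 (log2 fold change -0.52 ± 0.04, adjusted p = 0.000196). Sc5d, the desaturase that acts on its product, went from 34.38 and 35.82 TPM to 28.06 and 25.46 TPM (log2 fold change -0.38 ± 0.06, adjusted p = 0.00238). Msmo1, the C4 methyl oxidase, went from 21.58 and 21.34 TPM to 17.73 and 15.22 TPM (log2 fold change -0.37 ± 0.08, adjusted p = 0.00912). In all 3 both CS1 libraries lay below both PBS libraries, though groups did not overlap for 84.4% of all features. Cyp51, Nsdhl, Fdft1 and Dhcr7, which encode the lanosterol demethylase, a C4 decarboxylase, squalene synthase and the last reductase of the route, had log2 fold changes of -0.21, -0.16, -0.06 and -0.03 and did not pass. Exons of Fdft1 share 774 bases with the antisense gene Ctsb, which was at 606 and 605 TPM in PBS and fell to 343 and 336 TPM in CS1. The labels do not state whether reads were counted by strand, so the value of Fdft1 is uncertain.

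**Figure D2:**
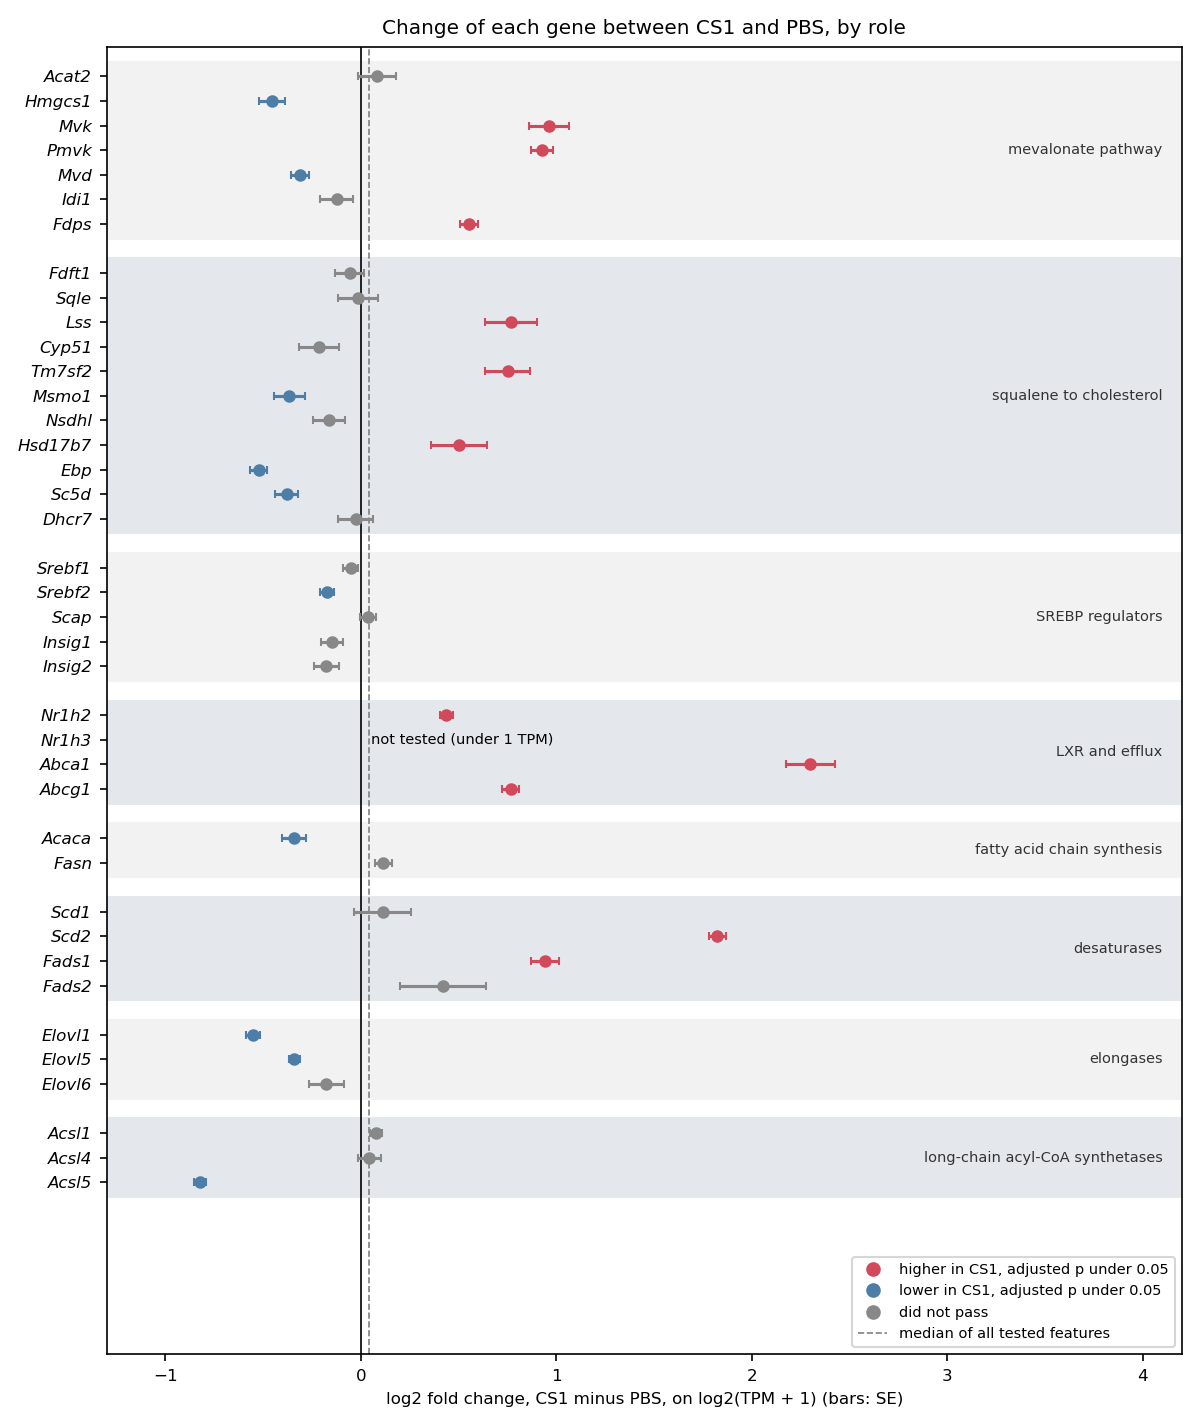
Log2 fold change of each gene, CS1 minus PBS, on log2(TPM + 1) with its SE as the bar, grouped by role; red is higher in CS1, blue lower and grey did not pass, and the dashed line is the median of all tested features (0.04). Abca1 at 2.30 and Scd2 at 1.82 stand to the right, Acsl5 at -0.82 to the left, and red, blue and grey are mixed along the sterol route.

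The exporters and Nr1h2 were higher in CS1, and Nr1h3 was too low to test. Abca1 (chromosome 4, 53030787 to 53159895, minus strand), which passes cholesterol and phospholipid to lipid-poor apolipoprotein, was at 0.78 and 1.05 TPM in PBS and at 8.62 and 8.19 TPM in CS1. The gap between the groups was many times the gap within either, and the CS1 mean was 9.19 times the PBS mean. The log2(TPM + 1) scale gives a smaller change for so low a gene, 2.30 ± 0.12 (SE) in log2 fold change. Since Abca1 met the filter through the CS1 libraries, its test is given from the fit with no filter (limma, adjusted p = 0.000998). Abcg1 (chromosome 17, 31057675 to 31117988, plus strand), which exports cholesterol to mature lipoprotein particles, rose from 25.33 and 26.36 TPM to 44.12 and 45.14 TPM (log2 fold change 0.77 ± 0.04, adjusted p = 4.55e-05). It remained the more abundant exporter, at 32.5 and 25.1 times Abca1 in PBS and 5.12 and 5.51 times in CS1.

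Nr1h2, which encodes LXR-beta, was at 95.52 and 100.06 TPM in PBS and at 130.72 and 134.57 TPM in CS1 (log2 fold change 0.44 ± 0.03, adjusted p = 0.000141). Nr1h3, which encodes LXR-alpha, the form of mature macrophages and liver, was at 0.42 and 0.64 TPM in PBS and 0.49 and 0.58 TPM in CS1, with overlapping groups. Nearly all LXR transcript in these cells was therefore Nr1h2, at 156 to 267 times the level of Nr1h3 in the 4 libraries.

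**Figure D3:**
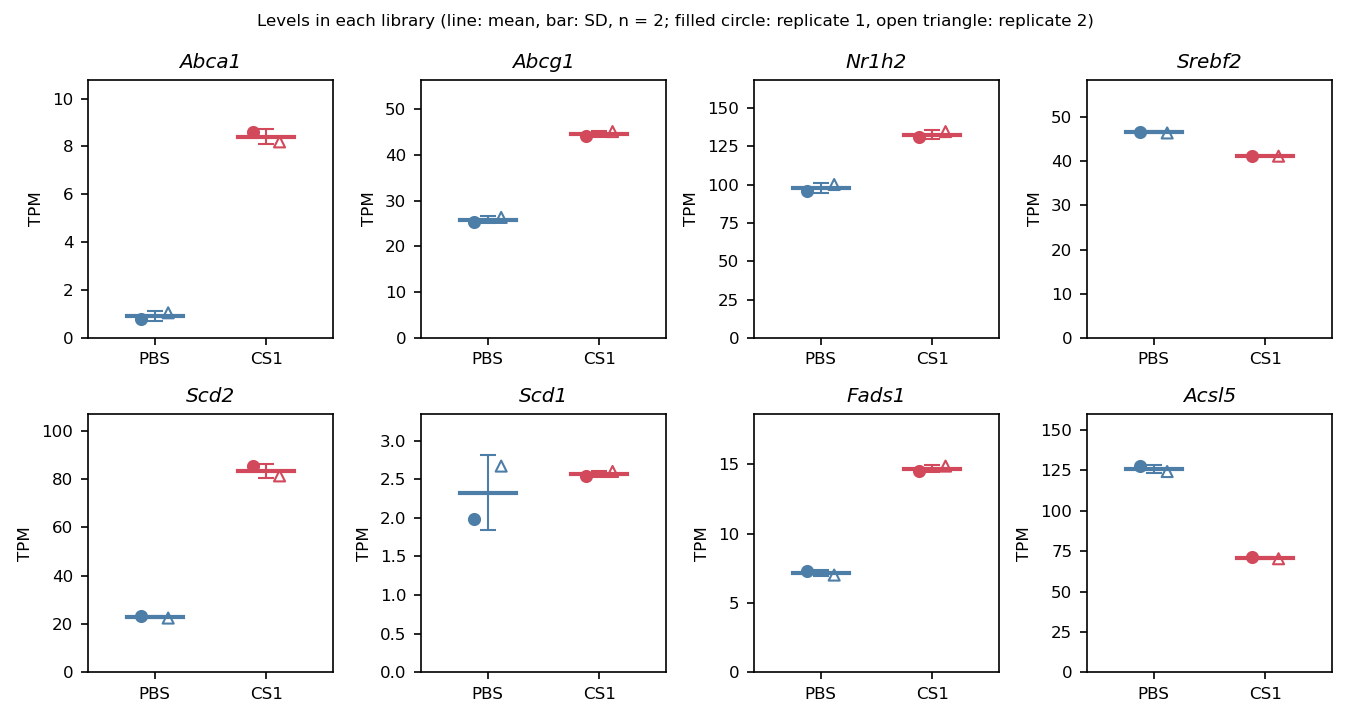
TPM of 8 genes in each library on linear axes that start at 0; filled circles are replicate 1, open triangles replicate 2, lines the group mean and bars the SD (n = 2). Abca1, Abcg1, Nr1h2, Scd2 and Fads1 are higher and Srebf2 and Acsl5 lower in both CS1 libraries, while Scd1 overlaps between 1.98 and 2.67 TPM.

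Of the 2 genes of fatty acid chain synthesis, Acaca fell and Fasn did not pass. Acaca, the acetyl-CoA carboxylase that commits carbon to the pathway, was at 20.02 and 19.05 TPM in PBS and at 15.09 and 15.28 TPM in CS1 (log2 fold change -0.34 ± 0.06, adjusted p = 0.00335). Of its 50-base words, 52.6% also occur in the gene model Gm5182, so its value is uncertain. Fasn, the synthase that builds palmitate, was at 28.21 and 27.68 TPM in PBS and at 30.32 and 30.36 TPM in CS1. Its groups did not overlap, but it did not pass (log2 fold change 0.11 ± 0.04, adjusted p = 0.0611, range 0.0524 to 0.188 across alternatives).

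The desaturases held the second largest rise of the 39 genes. Scd2 (chromosome 19, 44293674 to 44306864, plus strand), a stearoyl-CoA desaturase that makes monounsaturated fatty acids, was at 23.15 and 22.50 TPM in PBS and at 85.39 and 81.33 TPM in CS1. Both CS1 libraries stood far above both PBS libraries, a 3.65-fold difference (log2 fold change 1.82 ± 0.04, adjusted p = 3.40e-06), the 109th highest of 11866. Its close relative Scd1, the main form of liver and fat, was at 1.98 and 2.67 TPM in PBS and 2.54 and 2.60 TPM in CS1, with overlapping groups (log2 fold change 0.11, adjusted p = 0.527). The sign of Scd1 turned without PBS replicate 1 (-0.04) and after quantile normalization (-0.15). Scd2 was therefore 11.7 and 8.43 times Scd1 in PBS and 33.6 and 31.3 times in CS1. Only 4.07% of the 50-base words of Scd2 occur in any other gene, 2.77% in Scd1.

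Fads1 and Fads2, neighbours on chromosome 19, introduce double bonds into polyunsaturated fatty acids. Fads1, the delta-5 desaturase, rose from 7.31 and 7.02 TPM in PBS to 14.50 and 14.88 TPM in CS1, a 2.05-fold difference with tight replicates (log2 fold change 0.94 ± 0.07, adjusted p = 0.000129). Fads2, the delta-6 desaturase, was at 2.06 and 1.77 TPM in PBS and at 2.14 and 3.82 TPM in CS1. Its CS1 libraries disagreed, and it did not pass (log2 fold change 0.42 ± 0.22, adjusted p = 0.141). Without CS1 replicate 1 it did (0.73, adjusted p = 0.017, range 0.017 to 0.622 across alternatives). The summed level of the 4 desaturases was 34.5 and 34.0 TPM in PBS and 105 and 103 TPM in CS1, mostly Scd2.

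Elongases went down where they were abundant. Elovl1, which extends saturated very long chains for sphingolipids, was at 110.91 and 105.70 TPM in PBS and at 72.21 and 74.70 TPM in CS1 (log2 fold change -0.55 ± 0.04, adjusted p = 7.41e-05). Elovl5, which extends polyunsaturated chains, was at 160.24 and 161.68 TPM in PBS and at 129.20 and 124.60 TPM in CS1 (log2 fold change -0.34 ± 0.03, adjusted p = 0.000181). Elovl6, which extends palmitate, was far less abundant at 5.65 to 6.82 TPM and did not pass (log2 fold change -0.18, adjusted p = 0.129), with both CS1 libraries below both PBS libraries. It passed with the variance trend off and after quantile normalization (range 0.00981 to 0.374 across alternatives).

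Among the acyl-CoA synthetases, which activate long-chain fatty acids for use, the 2 abundant forms parted. Acsl5 (chromosome 19, 55251938 to 55297720, plus strand) was at 127.51 and 124.14 TPM in PBS and at 71.11 and 70.25 TPM in CS1. This was the largest fall of the 39 genes, to 0.562 of the PBS level (log2 fold change -0.82 ± 0.03, adjusted p = 9.20e-06), the 530th lowest of 11866. Its exons share 404 bases with the antisense gene Zdhhc6, which was at 41.6 and 45.1 TPM in PBS and 40.2 and 36.6 TPM in CS1. Acsl1 began at the same level, 127.19 and 124.43 TPM in PBS, and was at 134.92 and 130.76 TPM in CS1, which did not pass (log2 fold change 0.08 ± 0.03, adjusted p = 0.0581). It passed after quantile normalization (0.20, range 0.0017 to 0.253 across alternatives). In PBS the levels of Acsl1 and Acsl5 did not differ beyond the spread of the libraries, and in CS1 their ranges were far apart. Exons of Acsl1 share 1039 bases with the antisense gene model Gm45244, so its value is uncertain to that extent. Acsl4, which prefers arachidonic acid, stayed between 15.86 and 16.92 TPM with overlapping groups (log2 fold change 0.04, adjusted p = 0.551).

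The wider lipid network was described with 8 further lists, 96 genes in all, of which 2 per list are named by smallest p. Across all features 67.0% were called, 35.3% higher and 31.6% lower. On the sterol side, the called share was below 67.0% in the sterol uptake list and in the isoprenoid list. It was slightly above 67.0% in the SREBP processing list and in the oxysterol and LXR list. In SREBP processing and sterol-driven degradation 2 of 10 tested genes rose and 5 fell, or 3 without PBS replicate 1 and also 3 without CS1 replicate 2. Mylip, the LXR-induced ligase that degrades lipoprotein receptors, rose from 24.68 and 25.61 TPM to 44.48 and 42.91 TPM, while Erlin1, of the complex that restrains SREBP activation, fell from 99.38 and 98.92 TPM to 67.25 and 69.22 TPM. In sterol uptake, movement and esterification none of 11 tested genes rose and 7 fell (median log2 fold change -0.41), though 2 were called higher after quantile normalization. Soat1, which esterifies cholesterol for storage, fell from 135.87 and 139.56 TPM to 65.33 and 64.42 TPM, and Lrp1, a lipoprotein receptor, from 288.83 and 287.65 TPM to 166.97 and 164.23 TPM. Of 7 tested oxysterol and LXR genes 2 rose and 3 fell, with 4 higher after quantile normalization. The partner receptor gene Rxrb and Cyp27a1, the sterol 27-hydroxylase, rose by 0.46 and 0.49 on the log2 scale. The isoprenoid branch had 3 of 12 higher and 3 lower, and these calls were weak. Only 1 was higher without PBS replicate 1 or without PBS replicate 2, and 1 lower without CS1 replicate 1 or without CS1 replicate 2. Rabggtb and Pggt1b, prenyltransferase subunits, had log2 fold changes of 0.31 and -0.48.

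On the fatty acid side, called shares were 87.5% in acetyl-CoA and malonyl-CoA supply and 88.9% in further elongation, desaturation and activation. They were 64.3% in triglyceride, phospholipid and droplet genes and 80.0% in uptake and oxidation. For all features the share was 67.0%, with 35.3% higher and 31.6% lower. In acetyl-CoA and malonyl-CoA supply 3 of 8 tested genes rose and 4 fell. Acly, which makes cytosolic acetyl-CoA from citrate, fell from 177.27 and 172.30 TPM to 106.09 and 102.56 TPM, and Mid1ip1, an activator of acetyl-CoA carboxylase, fell by 0.34 on the log2 scale. Further elongation, desaturation and activation genes were higher in 5 of 9 tested and lower in 3, with 3 higher without PBS replicate 1. Fads3, of the same gene family as Fads1 and Fads2, rose from 2.02 and 1.61 TPM to 8.89 and 8.49 TPM. The dehydratase gene Hacd4 fell from 35.55 and 35.45 TPM to 16.55 and 18.41 TPM. Triglyceride, phospholipid and droplet genes rose in 7 of 14 and fell in 2. Dgat1, which completes triglycerides, rose from 35.64 and 36.57 TPM to 62.14 and 60.06 TPM, and Plin2, the coat protein of lipid droplets, fell from 358.78 and 360.56 TPM to 193.96 and 194.66 TPM. Uptake and oxidation genes rose in 4 of 15 and fell in 8. Cpt1a, the gate of mitochondrial fatty acid oxidation, fell from 185.29 and 182.79 TPM to 93.19 and 91.65 TPM, and Fabp5, a fatty acid carrier, from 21.60 and 22.12 TPM to 9.01 and 9.32 TPM. All of these named genes passed in limma with adjusted p-values of at most 0.00276.

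**Figure D4:**
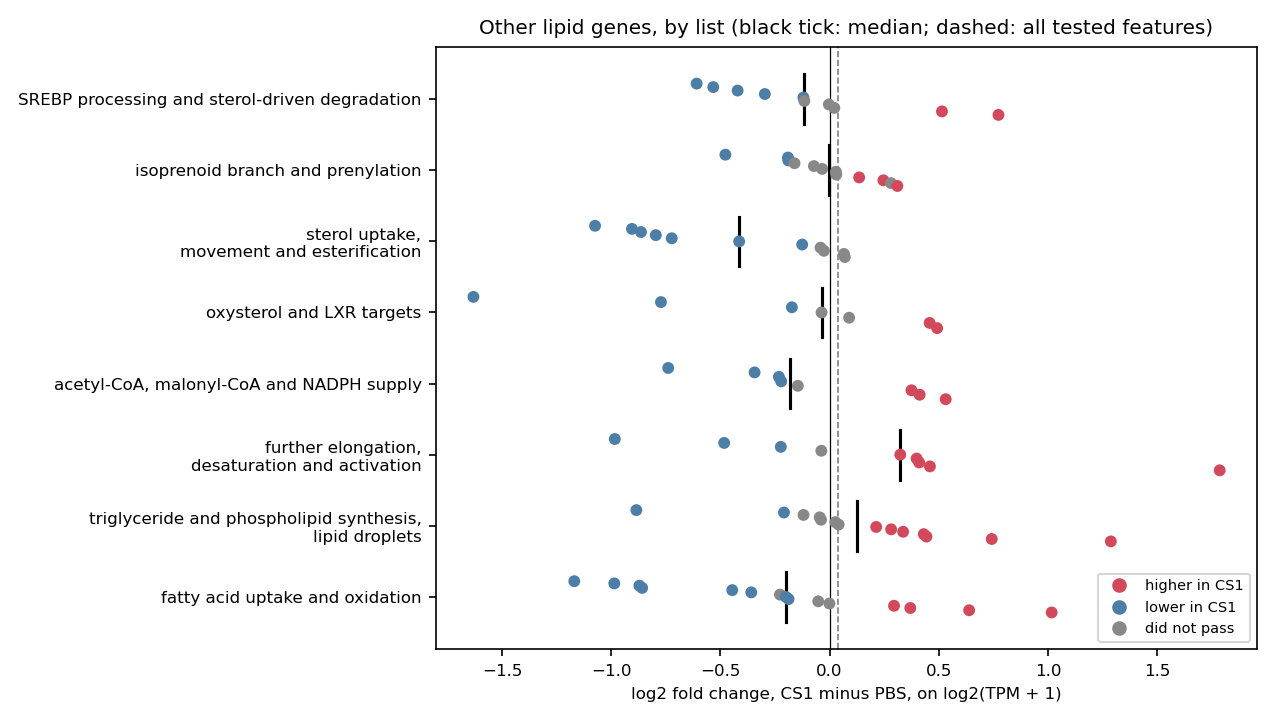
Log2 fold change, CS1 minus PBS, of each tested gene in 8 further lipid lists; red is higher, blue lower and grey did not pass, black ticks are list medians and the dashed line is the median of all tested features. The list of sterol uptake, movement and esterification has its median at -0.41 and no red point, and the elongation list has its median at 0.32.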

How the data were processed

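Poly(A) RNA of 4 libraries, 2 from PBS and 2 from CS1, was analysed from a single deposited table of 24497 features; groups came from the sample titles. Per the submitters' processing notes, STAR, RSEM and mm10 were used, without versions. The deposited values were taken as TPM made by the authors. No header or label names the unit; it rests on decimals, on column sums of 977973 to 986345 and on RSEM. The lowest listed value is 0.01, held by 7674 features in all libraries. TPM is a share of the total and keeps no depth, so no counting interval is given and replicates could not be tested against sampling noise.

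Values were tested as log2(TPM + 1) by limma (version 3.58.1, R 4.3.3), two-sided and with the variance trend, after a filter of 1 TPM in 2 libraries. P-values were adjusted by Benjamini-Hochberg across the 11866 features and called under 0.05. With 2 against 2 an exact permutation test cannot go below 0.333. The 39 genes, the lists and the tests were chosen with earlier results of these data known. Library values are given for called genes with an absolute log2 fold change of at least 0.3 and for rate-setting or regulatory genes (Sqle, Fasn, Scd1 and the SREBP and LXR genes among them), and Fads2 and Acsl1 were added after their values were seen; 2 genes of each further list are named by smallest p. Alternatives were a pseudocount of 0.1, no filter, a filter of 5 TPM, rescaling by a trimmed mean of M values (trims 0.3 and 0.05, unweighted), quantile normalization, no variance trend, each library left out and a replicate block. Coordinates, exon overlaps and shared 50-base words (taken every 10 bases) were taken from GENCODE M21 (GRCm38, which is mm10), where all 39 genes matched by symbol. Exons of 15 of the 39 overlap an exon of another gene, and 5 share at least 10% of their words with another gene. Promoters are from RefSeq (GRCm38.p6). The LXR repeat was searched only as an exact direct repeat of AGGTCA spaced by 4 bases, on both strands like the other motifs.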

Additional observations from a re-analysis of the deposited data

How the results depend on the processing

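Of the 11 genes called higher 10 and of the 10 called lower 10 kept their call and direction in every alternative that tested them; the exception was Hsd17b7. Over all features, the number called ran from 6679 to 6888 with 1 library left out, against 7949, and from 7116 to 7922 in the other alternatives. With 1 library left out, 10 to 11 of the 39 genes were called higher and 10 lower. Genes called lower numbered 16 after quantile normalization. The median of the 39 genes was -0.14 after quantile normalization, -0.0572 with the 5 TPM filter and -0.0546 with trimmed-mean rescaling, and it ran from -0.0339 to 0.0009 with 1 library left out, above 0 without PBS replicate 2. Its sign is therefore not settled. After quantile normalization signs also turned for the median of all features (-0.0052), the mevalonate pathway and its median gene Acat2 (-0.0313 each), the acyl-CoA synthetases and their median gene Acsl4 (-0.0541 each) and Scd1 (-0.15). Scap turned with trimmed-mean rescaling (-0.0011). With 1 library left out, the mevalonate median and Acat2 ran from -0.0413 (without CS1 replicate 2) to 0.2033, Scd1 from -0.0399 (without PBS replicate 1) to 0.2606, and Dhcr7 from -0.1233 to 0.0709 (without PBS replicate 2), with 0.02 without CS1 replicate 2. The cause was not tested; none of the single genes among them passed. The replicate numbers did not pair the libraries (r = 0.02 between same-numbered deviations across 11866 features). With the replicate block 7750 features, 11 higher and 10 lower genes of the 39 were called. The depth behind the values is unknown, so low genes such as Abca1 in PBS, Lss and Hsd17b7 carry counting error that could not be given.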

Other observations

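Some lipid genes outside the naming rule were picked after their values were seen and are given as values only. Smpdl3a, a phosphodiesterase gene that LXR can induce, was at 19.04 and 17.32 TPM in PBS and at 5.98 and 4.48 TPM in CS1, opposite in direction to Abca1, Abcg1 and Mylip. Rxra, the other common partner receptor of LXR, was at 18.51 and 19.96 TPM in PBS and at 11.35 and 10.35 TPM in CS1, while Rxrb was at 89.51 and 89.34 TPM and at 125.36 and 121.15 TPM. Stard4, a sterol carrier gene that SREBP2 drives, was at 7.26 and 6.06 TPM in PBS and 2.94 and 3.22 TPM in CS1. Lipa, the lysosomal lipase that frees cholesterol from lipoprotein esters, was at 112.52 and 116.24 TPM in PBS and at 64.68 and 60.19 TPM in CS1. In beta-oxidation, Slc25a20, the carnitine carrier that works beside Cpt1a, was at 54.11 and 50.19 TPM in PBS and at 28.64 and 27.45 TPM in CS1. The dehydrogenase gene Acadm was at 54.99 and 51.32 TPM in PBS and at 82.61 and 84.00 TPM in CS1.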
